A study of Mus musculus with 4 samples.

Results

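The genes described here are 10 mouse genes named for neutrophil granules and the neutrophil surface, Elane, Mpo, Prtn3, Ltf, Ngp, Retnlg, Hp, Cd177, Ly6g and Trem1. They were chosen by name, with earlier results of these data known, so their counts are not independent of the data. All 10 were found among the 39179 genes counted in each library. The 4 RNA sequencing libraries were made from skin of C57BL/6 mice. The 2 wild-type (WT) libraries came from skin of mice with an intact Itch gene, and the 2 Itch knockout libraries came from lesional skin of Itch-/- mice, which lack a ubiquitin ligase of the Nedd4 family. The labels give neither age, sex nor the number of animals per library. They also do not state that replicates are separate animals, and the p-values here therefore reflect library-to-library spread, which may be technical. Inflammation is entered as the phenotype of each sample, including the WT ones. The comparison asks how neutrophil transcripts of early and late maturation stages differed between the knockout lesions and WT skin.

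Neutrophils store antimicrobial proteins in granules that are filled in sequence as the cell matures in the bone marrow. Primary (azurophil) granules are filled at the promyelocyte stage with myeloperoxidase (Mpo) and the serine proteases neutrophil elastase (Elane) and proteinase 3 (Prtn3), and transcription of these genes stops before the cell leaves the marrow. Secondary (specific) granules are filled from the myelocyte stage on with lactoferrin (Ltf), neutrophilic granule protein (Ngp) and haptoglobin (Hp). Surface proteins such as Ly6g and the receptor Trem1 appear on later cells. Since transcription of the primary granule genes stops in the marrow, a tissue neutrophil normally carries few of their transcripts.

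The stretch before the start of transcription is shown for members of each stage, since these genes are known to depend on PU.1 (an ETS factor) and on C/EBP factors. Each sequence is the 250 bases before the RefSeq start (GRCm38.p6), 5′ to 3′ on the gene's strand. Capitals mark matches to GAGGAAGT, a PU.1-type ETS motif, to TTGCNNAA, a C/EBP-type motif, and to TATAAA, the TATA box, each searched on both strands. The primary granule members are at chr10:79886062-79886311 (Elane), chr11:87793534-87793783 (Mpo) and chr10:79879417-79879666 (Prtn3), all on the plus strand.
Elane: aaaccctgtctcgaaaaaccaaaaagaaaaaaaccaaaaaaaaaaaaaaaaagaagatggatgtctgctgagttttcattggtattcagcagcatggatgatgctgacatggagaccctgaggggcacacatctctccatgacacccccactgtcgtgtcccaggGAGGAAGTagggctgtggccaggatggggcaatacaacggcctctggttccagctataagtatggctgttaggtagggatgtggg
Mpo: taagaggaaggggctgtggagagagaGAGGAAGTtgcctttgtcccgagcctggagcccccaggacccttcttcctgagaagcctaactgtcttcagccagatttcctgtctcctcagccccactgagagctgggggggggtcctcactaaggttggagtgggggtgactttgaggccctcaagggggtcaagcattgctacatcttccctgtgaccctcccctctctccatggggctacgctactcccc
Prtn3: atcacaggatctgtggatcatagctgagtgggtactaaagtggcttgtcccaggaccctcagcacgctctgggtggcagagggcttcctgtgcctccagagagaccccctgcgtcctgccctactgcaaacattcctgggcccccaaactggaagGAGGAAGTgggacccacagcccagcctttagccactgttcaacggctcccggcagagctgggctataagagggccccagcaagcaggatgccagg
Of the late and surface members, only those with a C/EBP-type match are printed, and the promoters of Cd177 and Trem1, which have none, are not. The printed ones are at chr9:111019042-111019291 (Ltf), chr9:110419558-110419807 (Ngp), chr16:48872358-48872607 (Retnlg) and chr15:75155011-75155260 (Ly6g, the first of 2 starts in the table), all on the plus strand.
Ltf: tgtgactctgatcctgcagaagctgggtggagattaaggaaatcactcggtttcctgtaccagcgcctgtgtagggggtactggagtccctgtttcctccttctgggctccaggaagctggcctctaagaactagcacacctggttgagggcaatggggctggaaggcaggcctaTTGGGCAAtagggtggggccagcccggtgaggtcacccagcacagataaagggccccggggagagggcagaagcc
Ngp: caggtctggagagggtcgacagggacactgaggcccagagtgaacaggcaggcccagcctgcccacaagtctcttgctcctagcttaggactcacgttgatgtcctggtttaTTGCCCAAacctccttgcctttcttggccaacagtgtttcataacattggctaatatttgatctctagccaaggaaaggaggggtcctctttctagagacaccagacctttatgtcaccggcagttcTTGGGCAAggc
Retnlg: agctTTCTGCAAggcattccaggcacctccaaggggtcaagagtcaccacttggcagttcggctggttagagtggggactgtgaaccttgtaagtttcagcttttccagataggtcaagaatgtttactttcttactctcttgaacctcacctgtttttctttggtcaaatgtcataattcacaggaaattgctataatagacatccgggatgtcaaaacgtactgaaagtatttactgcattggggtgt
Ly6g: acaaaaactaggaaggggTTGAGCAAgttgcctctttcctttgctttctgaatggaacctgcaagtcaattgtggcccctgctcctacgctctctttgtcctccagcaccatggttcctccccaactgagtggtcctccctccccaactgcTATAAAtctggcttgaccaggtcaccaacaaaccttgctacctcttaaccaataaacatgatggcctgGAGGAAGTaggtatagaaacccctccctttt

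RefSeq gave a promoter for 9 of the 10 members. The ETS motif stood in all 3 primary granule members, at position -85 in Elane, -224 in Mpo and -95 in Prtn3, counted back from the start, and also at -31 in Ly6g. It was present in 2.44% of the 32851 promoters of the table. The C/EBP-type motif stood in Ltf (-75), Ngp (-138 and -11), Retnlg (-246) and Ly6g (-232) and in 9.56% of all promoters. A TATA box was found in Ly6g (-99) and Cd177 (-40) and in 12.4% of all promoters, and no match to the 3 motifs was found in Trem1. No 2 of these motifs overlapped in a printed sequence. A match describes letters only, and binding was not measured.

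Gene reads numbered 15144957 to 16008351 per library, so that 3 reads, the limit that a count of 0 allows, correspond to 0.187 to 0.198 CPM (read counts scaled to library size). Itch, the targeted gene, had 96.7 and 103 CPM in WT replicates 1 and 2 and 11.7 CPM in each knockout, a log2 fold change of -3.09 (SE 0.16, edgeR adjusted p = 0.0509, DESeq2 adjusted p = 1.77e-37). Xist stood at 1055 and 631 CPM in WT and below 1 CPM in the knockouts, and the Y-linked Kdm5d was at 0 in WT only, so genotype and sex cannot be told apart. WT replicate 1 carried 14050 CPM of 8 skeletal muscle genes against 2391 CPM in WT replicate 2 and 925 to 1108 CPM in the knockouts. Under edgeR's quasi-likelihood test with Benjamini-Hochberg adjustment, 1 of 16651 tested genes was called at 0.05, the Y-linked Eif2s3y, so that 0.00601% of tested genes were called higher in the knockouts. Leaving out 1 library gave 1317 calls without WT replicate 1, 5320 without WT replicate 2 and 0 without knockout replicate 1 or without knockout replicate 2. Each of these fits assumes that the lone library of its group varies like the other group.

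Of the 10 members, 7 lay higher in both knockout libraries than in both WT libraries, namely Retnlg, Ngp, Ltf, Hp, Cd177, Ly6g and Trem1. Prtn3 lay lower in both knockouts, and the WT and knockout libraries overlapped for Elane and Mpo. Over all 24574 genes with a read, both knockouts lay above both WT libraries for 25.9% and below both for 24.4%. The late and surface members were therefore all on the higher side, and none of the primary granule members was. None of the 6 members with enough reads for the edgeR test passed the adjusted threshold. At an unadjusted p under 0.05, 4 of the 6 (Retnlg, Ly6g, Trem1 and Cd177) were higher, against 12.0% of all tested genes, and the same 4 were called higher by DESeq2, against 7.99% of its tested genes. In the fit without a count filter, where all 10 members were tested, 6 were higher at an unadjusted p under 0.05 (9.44% of genes) and only Cd177 passed the adjusted threshold (edgeR adjusted p = 0.0463, 1.71% of genes called higher). The median fitted log2 fold change of the 10 members in that fit was 5.37, and that of all genes with a read was 0.003. With Ly6g set against a floor of 3 WT reads, the median of the members was 4.73.

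**Figure D1:**
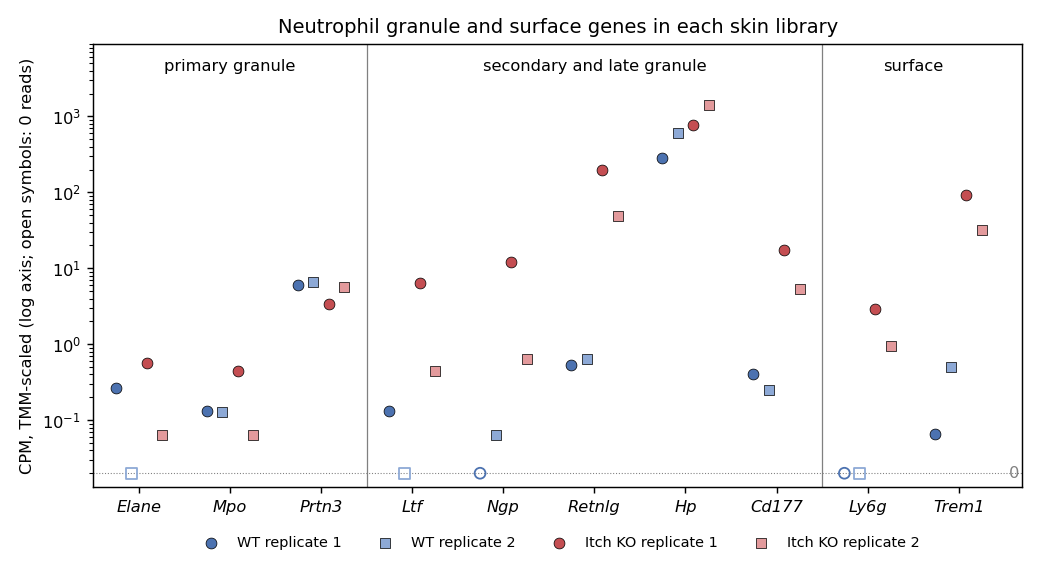
CPM of each member in each of the 4 libraries on a log axis, with blue symbols for WT, red symbols for Itch knockout and open symbols on the dotted line for 0 reads. Knockout symbols lie above WT symbols for every late and surface member, while WT and knockout symbols mix for Elane and Mpo, and Prtn3 lies between 3.35 and 6.69 CPM throughout.

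Among the primary granule genes, transcripts of neutrophil elastase and myeloperoxidase were near the detection floor in every library. Elane (chr10:79886247-79888215, plus strand) had 4 and 0 reads in WT replicates 1 and 2 and 9 and 1 reads in knockout replicates 1 and 2. Mpo (chr11:87793581-87804413, plus strand), the enzyme that makes hypochlorous acid, had 2 and 2 reads in WT and 7 and 1 reads in the knockouts. Knockout replicate 1 lay above both WT libraries for each gene, whereas knockout replicate 2, with a single read, lay within the WT range for Elane and below it for Mpo. The pooled knockout over WT ratio was 2.45 for Elane (95% exact interval 0.705 to 10.7) and 1.96 for Mpo (0.524 to 8.88), counting error only. Both intervals include 1, and at this depth no difference could be detected.

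Prtn3 (chr10:79874476-79883174, plus strand), the third azurophil protease, was the most abundant of the primary granule members in all 4 libraries. WT levels were 6.07 and 6.69 CPM and knockout levels 3.35 and 5.73 CPM, and the log2 fold change was -0.49 (SE 0.40, edgeR adjusted p = 0.491). Both knockouts were lower, but the gap from WT replicate 1 to knockout replicate 2 was smaller than the gap between the knockouts. The gene's GENCODE model starts upstream of the RefSeq start, and 159 of its exon bases (9.18%) overlap exons of Plppr3 on the opposite strand. Plppr3 had 132 to 202 reads per library against 53 to 106 for Prtn3. The strand setting of the counting is not given in the sources used here, so the Prtn3 level is uncertain and reads of the pair cannot be told apart there. Prtn3 ends 3.07 kb before Elane, and Elane ends 2.64 kb before Cfd, the adipocyte-rich complement factor D, which stood at 922 to 1576 CPM with overlapping groups.

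The secondary and late granule members were all higher in both knockouts, and apart from Hp each had 10 reads or fewer in either WT library. Retnlg (chr16:48872621-48874496, plus strand), a resistin-like protein of myeloid cells, had 8 and 10 reads in WT and 3117 and 769 reads in the knockouts, or 0.533 and 0.631 CPM against 197 and 49.0 CPM. Its log2 fold change was 7.70 (SE 0.97, edgeR unadjusted p = 0.00112, adjusted p = 0.0703, DESeq2 adjusted p = 9.50e-22). Retnlg was the second most abundant member in the knockouts after Hp, both by CPM and per length, at a mean of 207 reads per kilobase of exon, scaled to library size (RPKM).

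Ngp (chr9:110419747-110423012, plus strand), a cathelicidin-related granule protein, had 0 and 1 reads in WT and 190 and 10 reads in the knockouts. Ltf (chr9:111019271-111042767, plus strand), the iron-binding lactoferrin, had 2 and 0 reads in WT and 102 and 7 reads in the knockouts. In both genes the groups did not overlap, but almost all knockout reads came from replicate 1. Pooled over libraries the knockout over WT ratio was 196 for Ngp (95% exact interval 34.7 to 7766) and 53.3 for Ltf (14.4 to 446), counting error only. Neither had enough reads in 2 libraries for the main edgeR test. Without a count filter their log2 fold changes were 7.32 (SE 2.22, edgeR adjusted p = 0.231) and 5.60 (SE 1.87, edgeR adjusted p = 0.249).

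Cd177 (chr7:24743983-24760311, minus strand) encodes a glycoprotein of the specific granule membrane and the cell surface, which holds proteinase 3 on human neutrophils. It had 6 and 4 reads in WT and 280 and 83 reads in the knockouts, a log2 fold change of 5.11 (SE 0.84, edgeR adjusted p = 0.0838, DESeq2 adjusted p = 6.31e-07). Of its 50-base exon windows, 5.51% are identical to windows of BC049730 and Gm4763. Reads from these windows may be missing from its count or may come from the other genes.

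Hp (chr8:109575128-109579172, minus strand), the haemoglobin-binding protein haptoglobin, was by far the most abundant member in every library and is also made outside neutrophils, above all by liver and fat. WT libraries held 286 and 614 CPM and knockout libraries 778 and 1420 CPM, a log2 fold change of 1.29 (SE 0.51, edgeR adjusted p = 0.234, DESeq2 adjusted p = 0.0686). The groups did not overlap, yet the WT libraries differed 2.15-fold from each other. Hp was the only higher member with more reads in knockout replicate 2 than in replicate 1. A list of 9 adipocyte genes summed to 4726 and 2533 CPM in WT against 3336 and 3439 CPM in the knockouts. Of the 9, 1 was higher and 3 were lower in both knockouts, against 25.9% and 24.4% of all genes with a read. A list of 6 hepatocyte genes summed to 5.27 and 1.83 CPM in WT and 7.07 and 18.6 CPM in the knockouts. The excess of knockout replicate 2 in this sum came from 1 gene, Apoa1, at 1.07 and 13.6 CPM in knockout replicates 1 and 2. Alb, the best known of the list, was level there at 3.79 and 3.76 CPM. In all, 3 of the 6 genes were higher in both knockouts, among them Apoa1, while Fgb was at 0 in every library. The part of fat, liver or neutrophil RNA in the Hp level was not tested.

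The surface members lay on the same side as the late granule genes. Trem1 (chr17:48232768-48246924, plus strand), a receptor that amplifies inflammatory signalling in neutrophils and monocytes, had 1 and 8 reads in WT and 1442 and 494 reads in the knockouts. Its log2 fold change was 7.68 (SE 1.03, edgeR unadjusted p = 0.00132, adjusted p = 0.0730, DESeq2 adjusted p = 1.07e-16). Ly6g (chr15:75155240-75159126, plus strand), the antigen by which mouse neutrophils are usually sorted, had 0 reads in both WT libraries and 46 and 15 reads in the knockouts. Against a floor of 3 reads over the WT group, the pooled knockout level of Ly6g was 19.9-fold higher (edgeR adjusted p = 0.122, DESeq2 adjusted p = 0.00395). That value leaves out the counting error of the knockout reads, and the exact lower limit of the pooled knockout over WT ratio was 15.7. Without WT replicate 2 the edgeR adjusted p of Ly6g was 0.0283, the only member called when a library was left out. That fit holds a single WT library at 0 reads, and its spread comes from the knockouts alone. In bulk skin, more cells of a type and more RNA per cell cannot be told apart.

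Summed over genes, the stages stood in different proportions in the 2 groups. The primary granule sum was 6.47 and 6.82 CPM in WT against 4.36 and 5.86 CPM in the knockouts, and without Prtn3 it was 0.400 and 0.126 CPM against 1.01 and 0.127 CPM. The surface sum of Ly6g, Trem1 and Cd177 was 0.467 and 0.758 CPM in WT against 112 and 37.7 CPM in the knockouts. The secondary and late granule sum without Hp was 1.07 and 0.947 CPM in WT against 233 and 55.4 CPM in the knockouts. Most of its knockout reads were Retnlg, at 3117 of 3689 reads in replicate 1 and 769 of 869 reads in replicate 2. Cd177 is counted in both this sum and the surface sum, so these sums are not separate. Primary granule reads thus outnumbered surface reads in WT, 13.9 and 9 to 1, whereas in the knockouts the ratio was 0.0390 and 0.155. In WT the primary granule sum was nearly all Prtn3, the member with the uncertain reads, at 91 of 97 reads in replicate 1 and 106 of 108 reads in replicate 2. Without the highest member of each sum (Prtn3 and Trem1) the ratio was 1 and 0.5 in WT and 0.0491 and 0.0204 in the knockouts, so primary granule reads then did not outnumber surface reads in WT. With 2 libraries against 2 an exact permutation test of these sums cannot go below p = 0.33, and none is given.

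Ordered by length-corrected level in the knockouts, Hp (684 RPKM) and Retnlg (207) stood first, followed by Trem1 (20.5), Ngp (5.17), Cd177 (4.04), Prtn3 (2.62), Ly6g (2.05), Ltf (0.998), Elane (0.321) and Mpo (0.0739). The ranges of the 2 knockout libraries did not overlap between Hp, Retnlg, Trem1 and Ngp, but they overlapped for each pair of neighbours from Ngp down to Mpo, and the order there is not resolved. In WT, Hp (280 RPKM) and Prtn3 (3.68) stood first and every other member had a mean below 1 RPKM.

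**Figure D2:**
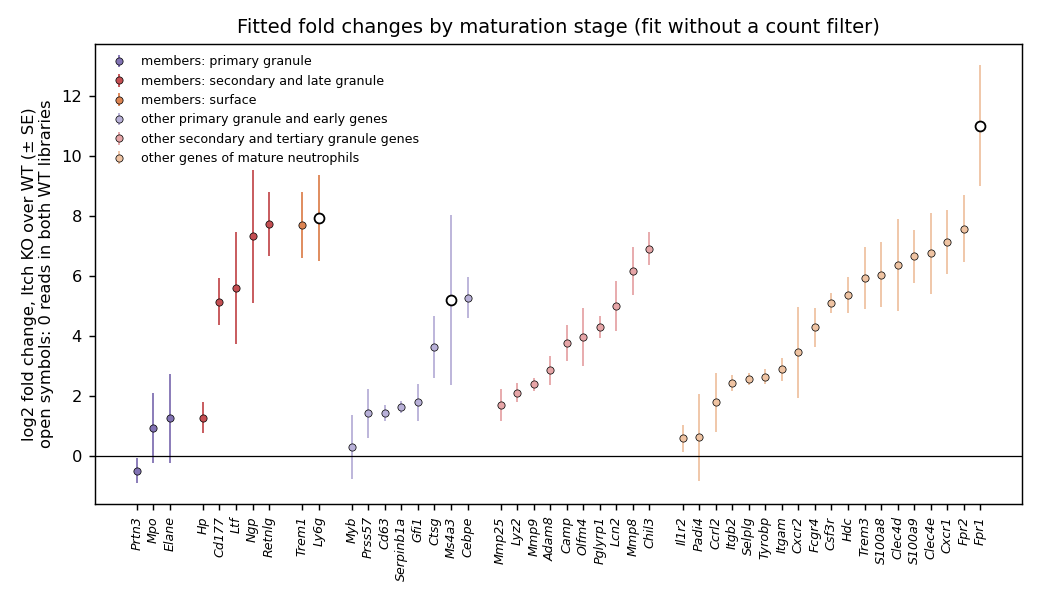
Fitted log2 fold change of knockout over WT with its SE, from the edgeR fit without a count filter, for the members and for other neutrophil genes by stage. In this fit primary granule members lie from -0.47 (Prtn3) to 1.27 (Elane), late granule and surface members from 1.30 (Hp) upward, and values of genes with 0 reads in both WT libraries (open symbols) depend on the prior count and are no bound.

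Other genes of each stage were read from lists. Of 10 other primary granule and early neutrophil genes, 6 were higher in both knockouts and 5 had an unadjusted p under 0.05, with a median log2 fold change of 1.72 in the fit without a count filter. The share higher in both knockouts was 25.9% over all genes with a read, and 12.0% of tested genes were higher at such a p. Cebpe, the factor that turns on secondary granule genes, stood at 0.0667 and 0.0631 CPM in WT against 2.21 and 3.38 CPM in the knockouts, with a fitted log2 fold change of 5.27 (SE 0.60, edgeR adjusted p = 0.0624). Gfi1, a repressor needed for neutrophil formation, Serpinb1a, an inhibitor of elastase, and Cd63, a granule membrane protein, had log2 fold changes of 1.77, 1.61 and 1.43. These last 2 are widely expressed, and both stood above 20 CPM in WT. Ctsg, another primary granule protease, stood at 0.133 and 0 CPM in WT against 0.695 and 1.08 CPM in the knockouts, while Ms4a3, Fcnb and Bpi had no more than 9 reads in any library. Ctsg, Ms4a3, Fcnb and Bpi are named here after their values were seen.

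All 10 other secondary and tertiary granule genes were higher in both knockouts, all 10 with an unadjusted p under 0.05 and 9 called by DESeq2, with a median log2 fold change of 3.87. Those with the smallest p were Pglyrp1, a peptidoglycan-binding protein (4.28, SE 0.33), Chil3, a chitinase-like protein (6.88, SE 0.58), Mmp9, gelatinase B (2.36, SE 0.22), and Mmp8, neutrophil collagenase (6.13, SE 0.84), each with an edgeR adjusted p of 0.0548 to 0.0727. Chil3 stood at 0.467 and 0.505 CPM in WT against 80.0 and 36.3 CPM in the knockouts. The 10 genes summed to 238 and 239 CPM in WT against 1638 and 922 CPM in the knockouts. Most of the WT sum was Lyz2, at 188 CPM in each WT library against 1032 and 573 CPM in the knockouts. Next in WT were Mmp9 (27.1 and 22.3 CPM) and Adam8 (18.6 and 21.3 CPM). The rest reached at most 5.30 CPM in a WT library (Lcn2), so the WT sum does not stand for the whole list. Lyz2, Adam8 and Lcn2 are named here after their values were seen. The part of other cells, such as macrophages, in these levels was not tested. Of 20 other genes of mature neutrophils, 17 were higher in both knockouts, 16 at an unadjusted p under 0.05 and 17 by DESeq2, with a median log2 fold change of 5.24. Csf3r, the G-CSF receptor, had 1.73 and 2.08 CPM in WT libraries, against 79.1 and 51.0 CPM in the knockouts. Selplg, a leukocyte surface glycoprotein, and Tyrobp, the adaptor through which Trem1 signals, had log2 fold changes of 2.55 (SE 0.16) and 2.62 (SE 0.25). None of these genes passed the adjusted threshold in the main edgeR fit. The medians come from the fit without a count filter, in which 6 of the 10 and 9 of the 20 passed it. Of all genes in that fit, 1.71% were called higher. Over all genes, 25.9% were higher in both knockouts, 12.0% at an unadjusted p under 0.05 in the main edgeR fit and 7.99% by DESeq2.

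Most members differed between the 2 knockout libraries by far more than counting error. The ratio of replicate 1 to replicate 2 was 18.8 for Ngp (95% exact interval 10.02 to 39.9) and 14.4 for Ltf (6.76 to 36.8), the largest among the members. It was 4.02 for Retnlg (3.71 to 4.35), 3.34 for Cd177 (2.61 to 4.33), 3.04 for Ly6g (1.67 to 5.86) and 2.89 for Trem1 (2.61 to 3.21). Hp went the other way at 0.548 (0.536 to 0.560). Over the 16514 genes with at least 20 knockout reads the median ratio was 0.999, and a ratio of at least 2, 3 or 10 was reached by 3.80%, 1.33% and 0.0969% of genes.

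The late genes did not share 1 ratio. The antimicrobial peptide gene Camp, which is related to Ngp and lies 570 kb from it on chromosome 9, had 0.267 and 0.126 CPM in WT against 2.59 and 2.80 CPM in the knockouts, a ratio of 0.924 (0.589 to 1.45). Ratios of Pglyrp1 (1.01) and Selplg (1.05) were also near 1, those of Csf3r and Tyrobp were 1.55 and 1.45, and Mmp8 stood at 3.17. The interval of Camp lies apart from those of Ngp and Ltf, although all 3 are secondary granule genes. Cebpe and Ctsg were on the other side of 1, at 0.655 (0.415 to 1.02) and 0.641 (0.272 to 1.45), with intervals that include 1. Beside these ratios, the macrophage and monocyte list summed to 3082 and 2472 CPM in knockout replicates 1 and 2, and the red blood cell list to 263 and 540 CPM. The part of cell makeup in the ratios was not tested.

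**Figure D3:**
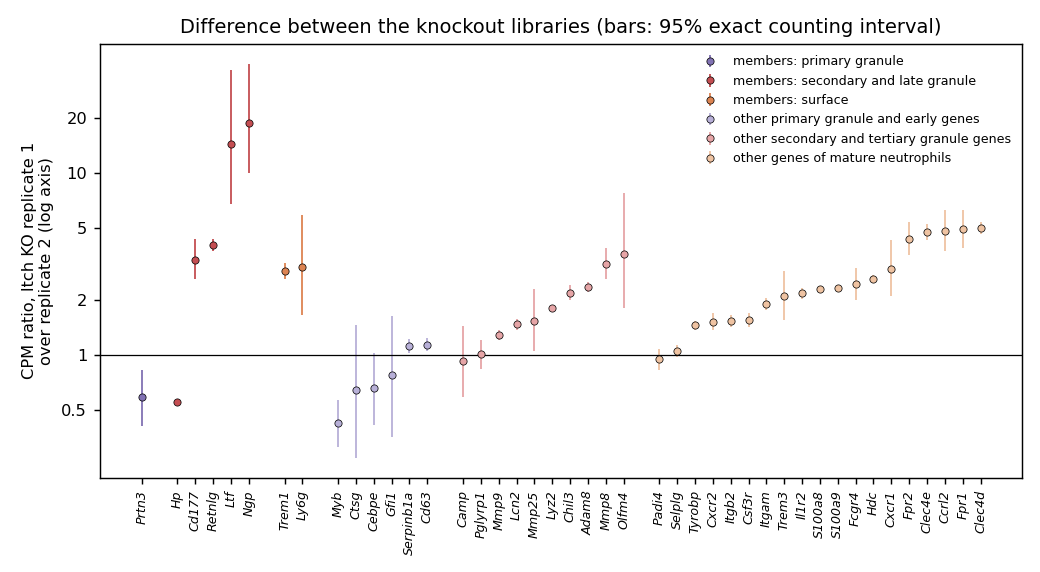
Ratio of CPM in knockout replicate 1 to replicate 2 on a log axis, with 95% exact counting intervals, for members and other neutrophil genes with at least 20 knockout reads. Ngp (18.8) and Ltf (14.4) stand highest, Camp, Pglyrp1 and Selplg lie near 1, and Hp (0.548) and Prtn3 (0.584) lie below 1.

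Family relatives and genomic neighbours were read beside the members. Near Retnlg, its relative Retnla, a product of macrophages and fat 28.2 kb away, stood at 106 and 25.7 CPM in WT against 149 and 358 CPM in the knockouts, the reverse order of Retnlg in the knockouts, and Retn (resistin) at 124 to 260 CPM had overlapping groups. Trem3, 0.852 kb from Trem1, stood at 0 and 0.189 CPM in WT against 8.59 and 4.08 CPM in the knockouts. Ly6c2, the Ly6C antigen of monocytes and neutrophils, stood at 0.667 and 0.505 CPM in WT against 18.0 and 8.35 CPM in the knockouts, and Ly6i, 172 kb from Ly6g, at 0.267 and 0.189 against 3.10 and 0.828 CPM. Lpo, 2.01 kb from Mpo, stood at 2.07 and 7.39 CPM in WT against 15.1 and 7.65 CPM in the knockouts, while the eosinophil peroxidase Epx had at most 1 read per library. Over the 22 relatives and neighbours, 17 were higher in both knockouts and 9 had an unadjusted p under 0.05 on the higher side. The shares over all genes were 25.9% and 12.0%.

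Genes that act on neutrophils or on their proteases were read in the same way. All 9 genes of a list of recruitment ligands and the surface genes Cxcr4, Pecam1 and Cd33 were higher in both knockouts, 8 by DESeq2. Among them were the chemokines Cxcl1 (0.0667 and 0.631 CPM in WT, 18.6 and 21.5 in the knockouts) and Cxcl5 (0.200 and 0.884 CPM in WT, 30.8 and 93.2 in the knockouts). These 2 were the exceptions between the knockout libraries. The other 7 of the 9 were higher in replicate 1 than in replicate 2, as were 8217 of the 16514 genes with at least 20 knockout reads. The median ratio of the list was 1.74, and Cxcl3, named here after its values were seen, had the highest (8.32). Of 7 inhibitors of neutrophil proteases, 4 were higher in both knockouts and Wfdc21 was lower. Over all genes with a read, 25.9% were higher and 24.4% lower in both knockouts, and DESeq2 called 7.99% of its tested genes higher. Slpi, the secreted leukocyte protease inhibitor, stood at 1.07 and 7.39 CPM in WT against 144 and 76.0 CPM in the knockouts. All 7 stefin A genes, which encode cysteine protease inhibitors, were higher in both knockouts, and 5 of the 7 were called higher by DESeq2. Stfa2l1 stood at 0.0667 and 0.189 CPM in WT against 80.2 and 17.01 CPM in the knockouts. Stfa3 (4.93 and 228 CPM in WT, 334 and 500 in the knockouts) and BC100530 (2.00 and 75.2 CPM in WT, 126 and 127 in the knockouts) were not called. Both were far higher in WT replicate 2 than in WT replicate 1. Sequence shared among the stefin A genes was not measured here. Reads that fit more than 1 of them may be missing from the counts or misplaced, so each level is uncertain.

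Markers of several other cell types were also higher in the knockouts. All 10 macrophage and monocyte genes were higher in both knockouts, from sums of 327 and 471 CPM in WT, and 7 of 8 eosinophil genes, 7 of 8 mast cell and basophil genes and 5 of 6 red blood cell genes were too. Of 8 keratinocyte genes, 1 was higher and 5 were lower in both knockouts, and of 8 skeletal muscle genes, 0 were higher and 7 lower. Of 6 genes of progenitors and dividing cells, 2 were higher in both knockouts. Over all genes with a read, 25.9% were higher and 24.4% lower in both knockouts, so 2 of 6 is near the share of all genes. Monocytes express Trem1 as well, and their part in its level was not tested. Ly6g and Ngp, the members most particular to neutrophils by textbook knowledge, stood at 0 or 1 read in each WT library and at 10 reads or more in each knockout.

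**Figure D4:**
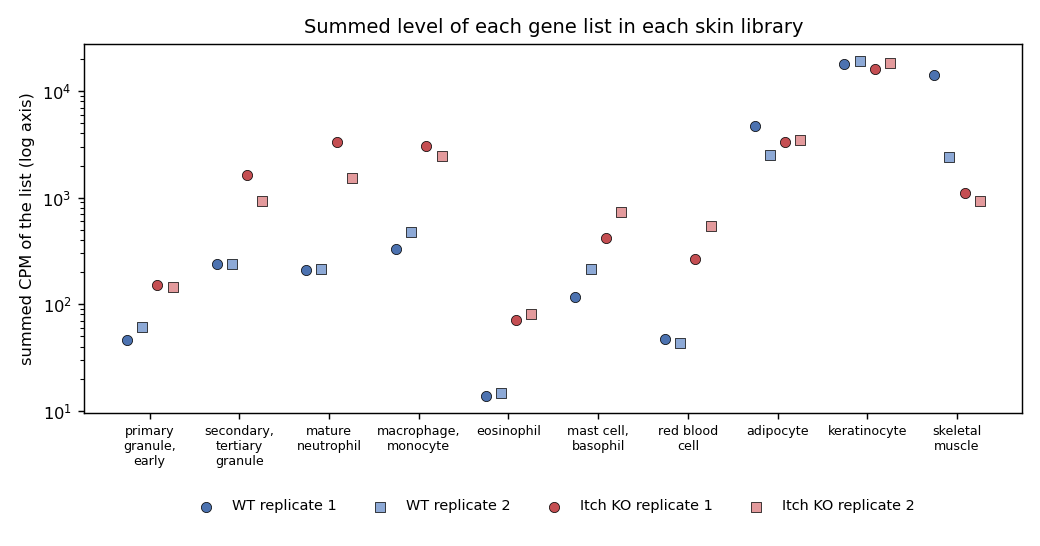
Summed CPM of each gene list in each library on a log axis, with blue symbols for WT and red symbols for Itch knockout. Sums of the 3 lists of other neutrophil genes and of the macrophage, eosinophil, mast cell and red blood cell lists lie higher in both knockouts, adipocyte and keratinocyte sums overlap between the groups, and skeletal muscle is highest in WT replicate 1 at 14050 CPM.

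Over all tested genes, the 5 whose level across the 4 libraries was most like the mean of the 6 tested members were Gml, Ssr3, Pdgfrb, Pkd1l3 and Postn. The measure was Pearson's r of log2(CPM + 1), 0.99986 (Postn) or more for each. The 4 points fall into 2 groups that differ in genotype and sex, so the measure mainly ranks genes whose groups differ and is given as a description. Postn, the matrix protein periostin, stood at 524 and 582 CPM in WT against 1768 and 1310 CPM in the knockouts.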

How the data were processed

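RNA was sequenced from 2 WT and 2 Itch knockout skin libraries, grouped by the labels. The authors deposited raw read counts per Ensembl gene, 1 file per library. The submitters' processing notes name HTSeq 0.6.1, TopHat2, CASAVA 1.8.2 and SAMtools 0.1.19, and the build mm10 (GRCm38). Annotation release, counting strand and read length: not given in the sources used here. Counter rows (no feature 5.68% to 7.45%, ambiguous 4.48% to 4.70%) stayed out of library sizes and tests. Symbols and coordinates came from GENCODE vM21, which matched 37693 of 39179 identifiers, and promoters from RefSeq.

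The test was run with edgeR 4.0.16 under R 4.3.3 (filterByExpr with a minimum count of 10, TMM, quasi-likelihood F test, two-sided, Benjamini-Hochberg, threshold 0.05). CPM are relative to TMM-scaled sizes. SE is the fold change divided by the root of F. The biological coefficient of variation was 0.341. Replicates differed by more than sampling noise (chi-square per degree of freedom 109 in WT and 23.5 in the knockouts). Exact intervals are Clopper-Pearson at 95% and, like the floors, cover counting error only. Shared windows of 50 bases stand in for the unknown read length. DESeq2 1.42.0, limma 3.58.1 (voom), other filters and scaling, a replicate block and leaving out each library were alternatives. The procedure was also run on simulated data with less spread between replicates than these libraries show and with changes only in well-covered genes. That run therefore does not bear on the calls here or on members with few reads. The members and lists were chosen with earlier results of these data known. Named genes were Itch, all members, up to 4 genes per list with the smallest unadjusted p, relatives, neighbours and markers needed to place a member, and the 5 most alike genes. A gene named by this rule is not reported here.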

Additional observations from a re-analysis of the deposited data

How the results depend on the processing

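Precision was limited by 2 libraries per group and, for Elane and Mpo, by few reads. For Ngp and Ltf it was limited by few reads outside knockout replicate 1. The 1 gene called by edgeR became 1 with DESeq2's size factors, 7 with a minimum count of 3, 488 without a count filter, 2329 with DESeq2 and 0 with limma-voom, and 0 to 5320 when 1 library was left out. Members called numbered 0 in the main edgeR test, 1 without a count filter, 4 with DESeq2 and 0 to 1 when 1 library was left out. Without the highest member, the knockout over WT ratio of summed CPM moved from 0.769 to 2.16 for the primary granule members, from 2.76 to 143 for the secondary and late granule members and from 122 to 41.1 for the surface members. Ranking by RPKM in place of CPM left 6 of the 10 members at their rank. No member's fold change reversed in any alternative that gave a value. Across alternatives the log2 fold change ranged from 6.37 to 8.38 for Retnlg, 6.72 to 9.68 for Trem1, 3.98 to 5.73 for Cd177, 6.47 to 9.62 for Ngp, 4.61 to 8.77 for Ltf, 5.72 to 8.51 for Ly6g (adjusted p 0.00395 to 0.54), 0.79 to 1.95 for Hp and -0.92 to -0.16 for Prtn3. Elane and Mpo could be fitted only without a count filter. Same-numbered libraries deviated together with a correlation of 0.186 over 2 pairs, which does not show that numbers pair them. With the replicate block 0 genes were called.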
